A study of Mus musculus with 6 samples.

Results

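The genes described here encode sensors of foreign RNA and DNA, with 2 adaptor proteins that relay their signal. They were taken by symbol from a list of 10 that was chosen with earlier results of these data known. All 10 were among the 24015 symbols of the count table. The cells were cancer-associated fibroblasts (CAFs), which make up much of the tumour stroma, in primary culture from mammary tumours of NeuT transgenic mice of BalbC background, which carry an activated Her2/neu gene. Nanoparticles carrying either a control siRNA or an anti-Stat3 siRNA were applied at 1 ug/mL for 72 hours, to 3 samples each, and poly(A) RNA was sequenced. The study asked which genes depend on the transcription factor STAT3 in CAFs. Every sample of both groups had received an siRNA, a double-stranded RNA, so the 2 siRNAs are compared and cells without any siRNA were not analysed here. The siRNA sequences, the age of the mice and the number of animals are not given in the sources used here.

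Cells detect viral or misplaced nucleic acid with receptors in the cytosol and in endosomes. RIG-I (Ddx58) and MDA5 (Ifih1) bind double-stranded RNA in the cytosol, both signal through the mitochondrial adaptor MAVS, and LGP2 (Dhx58) regulates them. TLR3 and TLR7 read double-stranded and single-stranded RNA in endosomes, cGAS (Mb21d1) binds DNA and signals through STING (Tmem173), PKR (Eif2ak2) halts translation when it binds double-stranded RNA, and ZBP1 binds Z-form nucleic acid and can trigger cell death. These routes lead to type I interferon, and several of the sensor genes are themselves known to be induced by interferon through a promoter sequence called the interferon-stimulated response element (ISRE).

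Promoters of 4 sensor genes are shown, 3 that hold an ISRE-like sequence and, of those found without it (Mavs, Tlr3 and Mb21d1), that of Mavs. They come from RefSeq on build GRCm38.p6, run 5′ to 3′ from 250 bases before to 50 bases after the gene's start, and have in capitals the ISRE letters searched for, GAAA, any 2 bases and GAAA, read on either strand. The regions are chr4:40239776-40240075 (minus strand) for Ddx58, chr2:62646206-62646505 (minus) for Ifih1, chr17:78882523-78882822 (minus) for Eif2ak2 and chr2:131233813-131234112 (plus) for Mavs.
Ddx58: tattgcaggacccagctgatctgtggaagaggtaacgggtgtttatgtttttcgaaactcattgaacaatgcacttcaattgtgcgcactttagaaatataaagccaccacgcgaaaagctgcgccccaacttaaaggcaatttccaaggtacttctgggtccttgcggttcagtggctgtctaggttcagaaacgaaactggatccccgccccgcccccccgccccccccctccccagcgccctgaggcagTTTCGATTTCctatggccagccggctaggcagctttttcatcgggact
Ifih1: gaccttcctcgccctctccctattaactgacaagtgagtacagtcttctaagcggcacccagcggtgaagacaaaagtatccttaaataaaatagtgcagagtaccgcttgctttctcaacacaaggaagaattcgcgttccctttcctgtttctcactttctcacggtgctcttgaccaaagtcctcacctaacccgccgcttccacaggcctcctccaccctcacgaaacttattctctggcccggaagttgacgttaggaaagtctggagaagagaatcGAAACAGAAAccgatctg
Eif2ak2: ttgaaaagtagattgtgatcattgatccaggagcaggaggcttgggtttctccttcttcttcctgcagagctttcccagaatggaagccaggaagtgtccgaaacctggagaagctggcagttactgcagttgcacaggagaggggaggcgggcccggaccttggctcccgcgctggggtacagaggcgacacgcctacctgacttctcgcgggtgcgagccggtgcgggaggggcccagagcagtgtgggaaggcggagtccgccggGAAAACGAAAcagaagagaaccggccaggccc
Mavs: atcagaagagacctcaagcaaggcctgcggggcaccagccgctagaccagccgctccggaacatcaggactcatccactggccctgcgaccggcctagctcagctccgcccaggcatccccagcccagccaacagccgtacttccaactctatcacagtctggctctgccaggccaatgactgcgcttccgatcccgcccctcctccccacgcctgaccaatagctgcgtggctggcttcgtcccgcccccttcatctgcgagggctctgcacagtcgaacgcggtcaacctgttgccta

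Of the 10 genes, 6 had a promoter in the RefSeq table, and 3 of these 6 held the ISRE letters, against 3.44% of all 32851 promoters of the same length. The match lay 2 to 11 bases past the start in Ddx58 (on the opposite strand), 32 to 41 bases past it in Ifih1 and 18 to 27 bases past it in Eif2ak2. The promoters of Mavs, Tlr3 and Mb21d1 did not hold these letters, and those of Dhx58, Tlr7, Zbp1 and Tmem173 were not analysed here. A palindrome bound by STAT factors, TTC, any 3 bases and GAA, occurred once, in Eif2ak2, starting 178 bases before the start, and in 8.3% of all promoters. The 2 matches in Eif2ak2 do not overlap. A match of letters is a description of the sequence and does not show that a factor binds there.

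**Figure D1:**
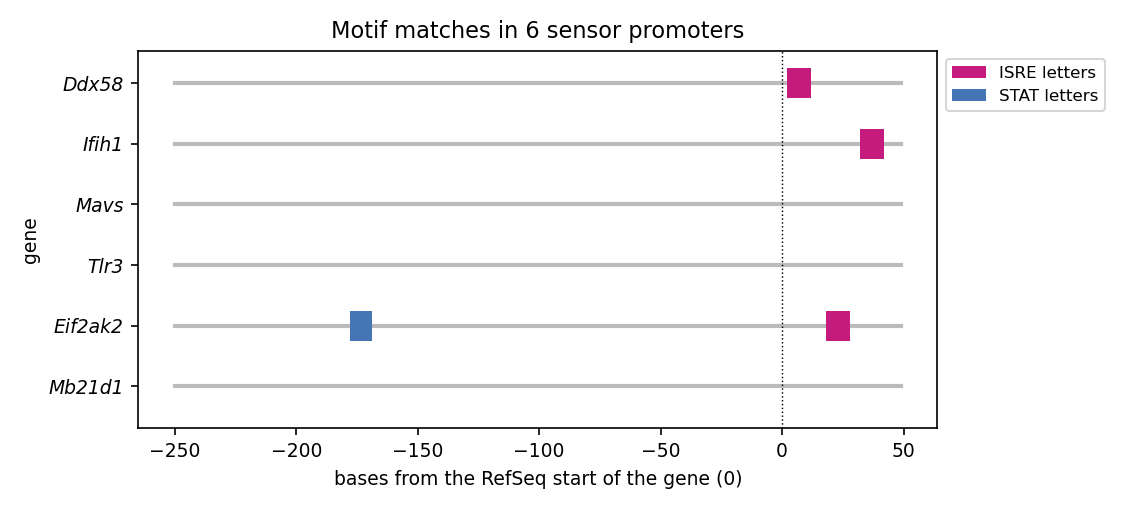
Positions of the ISRE letters (pink) and of the STAT palindrome (blue) in the 6 sensor promoters found in RefSeq, in bases from the start of the gene at 0. All 3 ISRE matches lie within 41 bases past the start, and the single STAT match lies before it, in Eif2ak2.

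Total counts ranged from 12998168 to 18683852 per sample. Samples with the same number in the 2 groups deviated together from their group means, with correlations of 0.83, 0.82 and 0.83 across genes, so each number is called a pair. Levels are given as CPM, library-size scaled counts with TMM factors, and a change is the log2 ratio of an anti-Stat3 level to a control level. Stat3 itself had 220, 359 and 405 CPM in control samples 1 to 3 and 34.7, 81.9 and 78.9 CPM in anti-Stat3 samples 1 to 3. The fibroblast label held against its markers: all 12 fibroblast markers passed the filter on low counts, with a summed level of 28849, 67175 and 74415 CPM in control samples 1 to 3 and 34273, 44610 and 58532 CPM in anti-Stat3 samples 1 to 3. Epithelial markers were lower in sum, from 29.0 to 397 CPM, and highest in pair 2. Whether the samples are separate cultures or animals is not stated in the labels, and p-values therefore describe the spread of these samples alone. Between pairs this spread includes cell type markers. The macrophage marker Lyz2 had 11.0, 1208 and 1614 CPM in control samples 1 to 3 and 11.7, 1198 and 1907 CPM in anti-Stat3 samples 1 to 3. How far the rest of the spread is technical is not known.

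The RNA sensors of the cytosol, Tlr3, PKR and ZBP1 had higher transcript levels with anti-Stat3 than with control siRNA in each of the 3 pairs, by 1.92-fold to 7.21-fold in pairs 2 and 3. In pair 1 the same 6 genes differed by 0.05 to 0.49 on the log2 scale. The adaptors Mavs and Tmem173, the DNA sensor Mb21d1 and the endosomal sensor Tlr7 stayed within 0.936-fold and 1.37-fold of control in pairs 2 and 3. The division into these 6 and 4 genes was made after their values were seen and is a description.

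**Figure D2:**
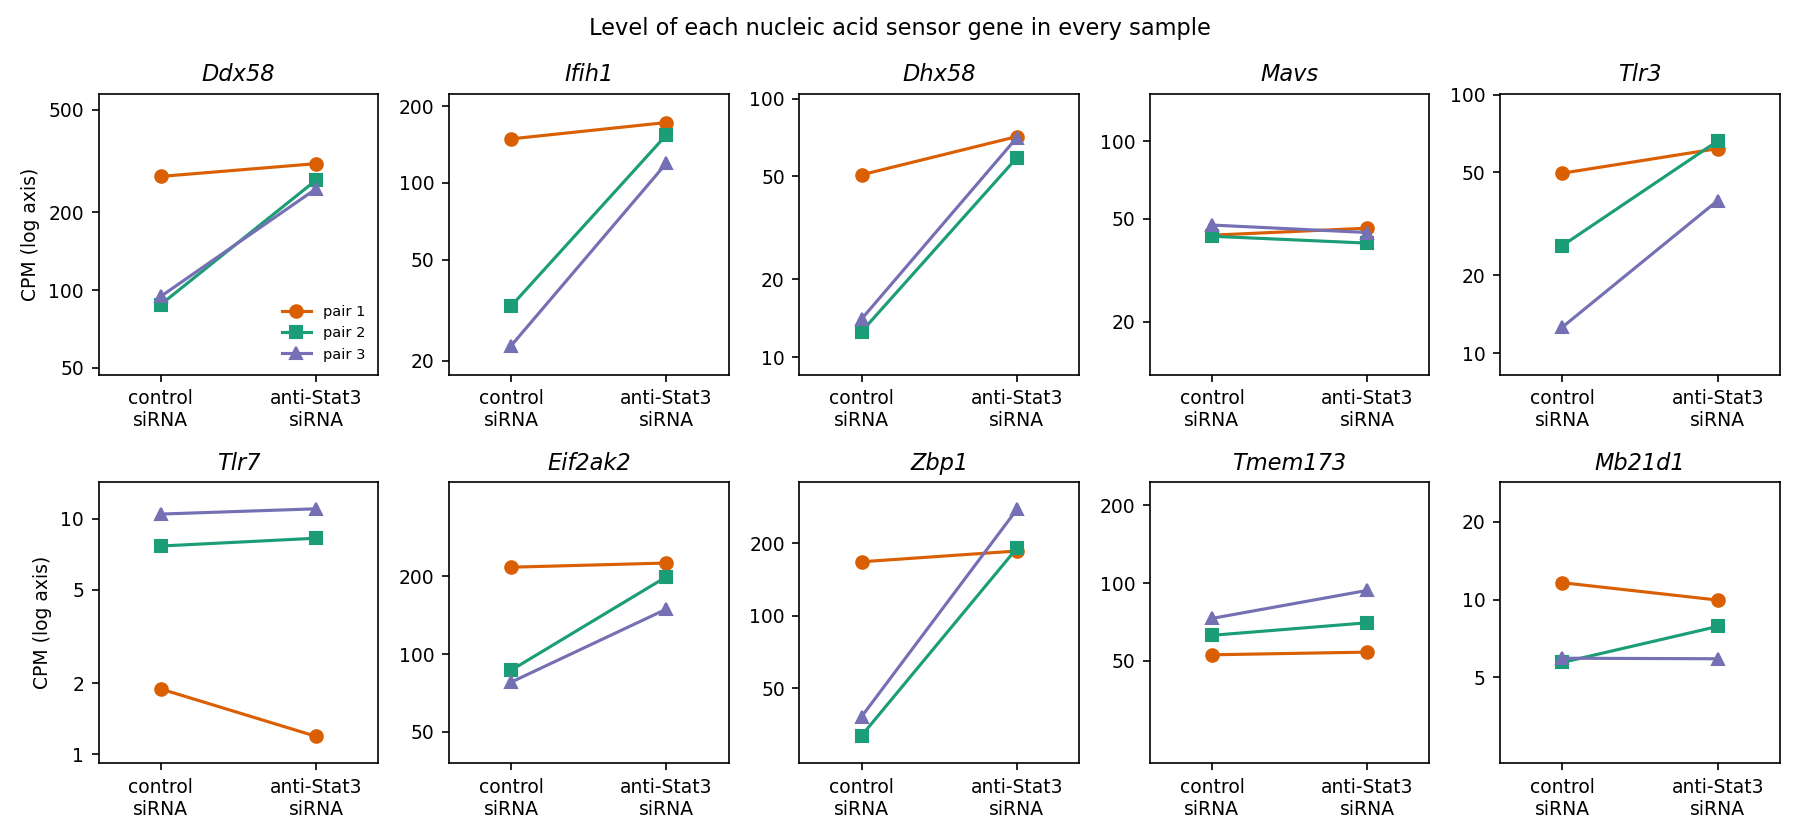
Level of the 10 genes in every sample, in CPM on a log axis, with a line joining the control and anti-Stat3 siRNA samples of each pair. In Ddx58, Ifih1, Dhx58, Tlr3, Eif2ak2 and Zbp1 the lines of pairs 2 and 3 rise from control levels below that of pair 1.

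Ddx58, which encodes RIG-I, had 276, 88.0 and 94.6 CPM in control samples 1 to 3 and 309, 267 and 247 CPM in anti-Stat3 samples 1 to 3. Control sample 1 lay among the anti-Stat3 samples, and the other controls lay below all of them. Its log2 changes were 0.16, 1.60 and 1.38 in pairs 1 to 3. Ifih1, the gene of MDA5, had 149, 32.9 and 23.0 CPM in control samples 1 to 3, set against 173, 155 and 120 CPM under anti-Stat3 siRNA. Again control sample 1 lay inside the anti-Stat3 range, and the pair changes were 0.21, 2.23 and 2.38. Dhx58, the gene of LGP2, had 50.7, 12.5 and 14.0 CPM in control samples 1 to 3, set against 71.3, 59.1 and 70.7 CPM under anti-Stat3 siRNA. Here the groups did not overlap, since the lowest anti-Stat3 sample was above the highest control, and the pair changes were 0.49, 2.22 and 2.32.

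Mavs, the adaptor of RIG-I and MDA5, was nearly level across the 6 samples. It had 43.2, 42.8 and 47.3 CPM in control samples 1 to 3, set against 46.0, 40.3 and 44.3 CPM under anti-Stat3 siRNA. The groups overlapped, and the pair changes of 0.09, -0.09 and -0.10 had no common sign. The edgeR change with the group alone was -0.03 ± 0.13 (SE).

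Among the endosomal receptors, Tlr3 and Tlr7 had different patterns. Tlr3 had 49.6, 26.0 and 12.6 CPM in control samples 1 to 3, set against 61.8, 66.1 and 38.9 CPM under anti-Stat3 siRNA, with pair changes of 0.32, 1.34 and 1.62. Each anti-Stat3 sample was above its own control, while control sample 1 was above anti-Stat3 sample 3. Tlr3 was thus higher in each pair without the ISRE letters in its promoter. Tlr7 had 1.89, 7.67 and 10.5 CPM in control samples 1 to 3, set against 1.19, 8.28 and 11.0 CPM under anti-Stat3 siRNA. Its level was set apart by pair, low in both samples of pair 1, and rested there on counts of only 28 and 19. The pair changes of Tlr7 were -0.62, 0.11 and 0.07.

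Tlr7 is known to be expressed by macrophages and dendritic cells, and macrophage markers had the same order over the pairs. The 19 macrophage markers found, all of which passed the filter, summed to 48.6, 1830 and 2547 CPM in control samples 1 to 3, set against 44.0, 1774 and 2939 CPM under anti-Stat3 siRNA. The lysozyme gene Lyz2 gave most of this sum in pairs 2 and 3. C1qa, a complement gene of macrophages, had 0 and 0.13 CPM in the samples of pair 1 and 51.2 to 118 CPM in the others. In bulk RNA, fewer macrophages and less RNA per macrophage cannot be told apart. The pairs with these markers were those in which the 6 sensor genes differed most between the siRNAs. The sum of the fibroblast markers also set pair 1 apart. It was lowest there and higher with anti-Stat3 siRNA, and in pairs 2 and 3 it was lower with anti-Stat3 siRNA. The collagen genes Col1a1, Col1a2 and Col3a1 gave most of this sum. Pdgfra, Pdgfrb, Dcn, Lum and Fap were also lowest in pair 1 with either siRNA. The changes of these markers did not have the sign of the sum's change in every pair. Vim and S100a4 were higher in all 3 pairs (16.7% of the 12 markers, against 17.3% of all tested genes). Pdgfra and Dcn were lower in all 3 (16.7%, against 16.4%), and Acta2 was highest in pair 1. The part of either marker list in the sensor differences was not tested.

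**Figure D3:**
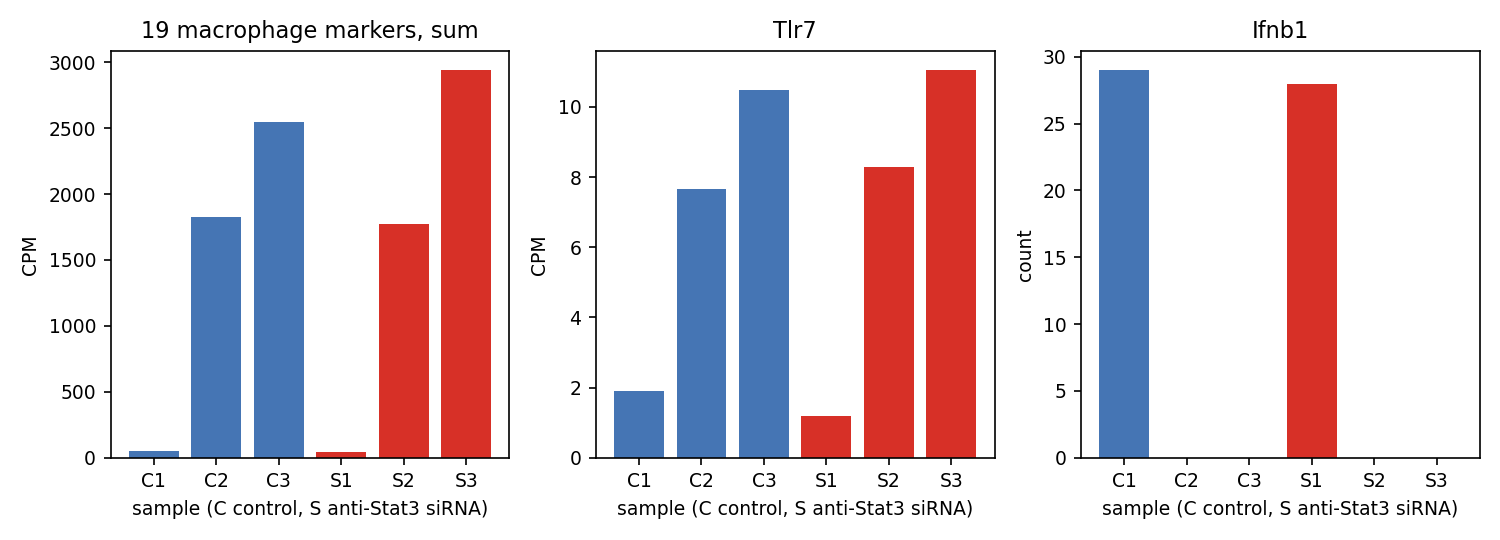
Summed level of 19 macrophage markers (CPM), level of Tlr7 (CPM) and count of Ifnb1 in control siRNA samples C1 to C3 and anti-Stat3 siRNA samples S1 to S3. Tlr7 and the macrophage markers are low in both samples of pair 1, where the 2 libraries with Ifnb1 counts (29 and 28) are found.

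Eif2ak2, the gene of PKR, had 217, 86.6 and 77.8 CPM in control samples 1 to 3, set against 225, 199 and 149 CPM under anti-Stat3 siRNA. Its pair changes of 0.05, 1.20 and 0.94 were the smallest of the 6 genes, and control sample 1 was above 2 of the 3 anti-Stat3 samples. Zbp1 had 168, 31.9 and 38.2 CPM in control samples 1 to 3, set against 186, 191 and 276 CPM under anti-Stat3 siRNA. Its groups did not overlap, and its pair changes of 0.15, 2.58 and 2.85 include the largest of any of the 10 genes, a 7.21-fold difference in pair 3.

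The DNA-sensing pair showed smaller differences. Mb21d1, the gene of cGAS, had 11.6, 5.72 and 5.94 CPM in control samples 1 to 3, set against 9.97, 7.88 and 5.91 CPM under anti-Stat3 siRNA. It was highest in pair 1 with either siRNA, the groups overlapped, and its pair changes were -0.22, 0.45 and -0.0067. Tmem173, the gene of STING, had 52.8, 62.8 and 73.0 CPM in control samples 1 to 3, set against 54.0, 70.2 and 93.7 CPM under anti-Stat3 siRNA. All 3 of its pair changes were positive (0.03, 0.16 and 0.36), but the groups overlapped.

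**Figure D4:**
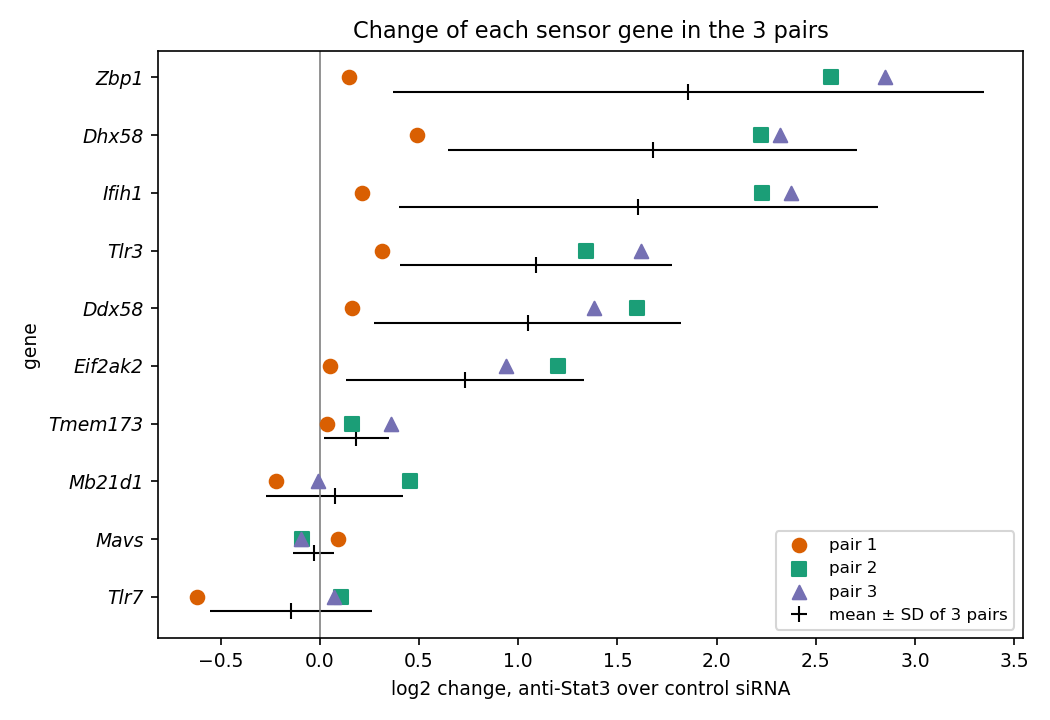
Log2 change of anti-Stat3 over control siRNA for each gene in pairs 1 to 3 (symbols), with the mean and SD of the 3 pairs as a bar below them. For 6 genes pairs 2 and 3 lie between 0.94 and 2.85 while pair 1 lies at 0.49 or below.

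None of the 10 genes passed when the group was the only term. All 10 passed the filter on low counts, which kept 13284 genes. The edgeR quasi-likelihood test called 0 of the 10 at an adjusted p under 0.05, where it called 0% of all tested genes. At an unadjusted p under 0.05 it had 1 of the 10, Dhx58, with a change of 1.38 ± 0.56 (SE; adjusted p = 1.00 in edgeR), against 1.77% of all tested genes. DESeq2 with the group alone called 0 (0.128% of all tested genes) and had 2 at an unadjusted p under 0.05 (2.22%). Stat3, the targeted gene, was not called in edgeR with the group alone either, at -2.33 ± 0.41 (SE). It was called with the group alone in DESeq2 (adjusted p = 4.7e-05 in DESeq2) and with the pair as a block in edgeR (adjusted p = 0.0027 in edgeR). The median edgeR change of the 10 genes was 0.72, against -0.0028 over all tested genes, and their median changes in pairs 1 to 3 were 0.12, 1.27 and 1.16.

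With the pair as a block, 2 of the 10 genes rose in DESeq2, where 0.866% of all tested genes were called higher. These were Tlr3, at 1.09 ± 0.25 (SE, adjusted p = 0.0019 in DESeq2), and Eif2ak2, at 0.73 ± 0.22 (SE, adjusted p = 0.047 in DESeq2). The SDs of their 3 pair changes, 0.69 and 0.60, were the smallest of the 6 genes. Zbp1 (1.91 ± 0.75), Dhx58 (1.70 ± 0.56), Ifih1 (1.64 ± 0.64) and Ddx58 (1.06 ± 0.43) had larger SEs and DESeq2 adjusted p-values from 0.11 to 0.30. Blocked edgeR and blocked limma-voom each called 0 of the 10 (0.0602% of all tested genes in each). At an unadjusted p under 0.05 blocked edgeR had 6 of the 10, all higher, against 5.63% of all tested genes higher, and blocked limma-voom also had 6 (11.2% of all tested genes in either direction). The smallest adjusted p among the 10 in blocked edgeR was 0.17, for Dhx58.

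Which pairs were fitted decided these calls. Without pair 1, blocked edgeR called 6 of the 10 genes, all higher, where it called 3.02% of all tested genes higher, and blocked DESeq2 called the same number, where it called 2.02% higher. The changes in blocked edgeR were then 1.49 ± 0.16 for Ddx58, 2.31 ± 0.17 for Ifih1, 2.28 ± 0.16 for Dhx58, 1.48 ± 0.16 for Tlr3, 1.07 ± 0.16 for Eif2ak2 and 2.72 ± 0.17 for Zbp1 (SE, edgeR adjusted p at most 9.0e-04). With 2 pairs a blocked fit has 1 residual degree of freedom, and the spread behind these SEs is taken largely from the other genes. Without pair 2 or without pair 3, neither tool called any of the 10. Of all tested genes blocked edgeR then called 0.0225% and 0%, and blocked DESeq2 0.105% and 0.147%. With control sample 1 left out and no block, edgeR called 2 of the 10, Dhx58 and Zbp1, and 0.294% of all tested genes. That the change differs between pair 1 and the other pairs was not tested, since pair 1 has 1 sample of each group.

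By counts without a test, 7 of the 10 genes were higher in all 3 pairs, against 17.3% of all tested genes, and 0 were lower in all 3 (16.4%). More than 2-fold higher in both pair 2 and pair 3 were 5 of the 10 (Ddx58, Ifih1, Dhx58, Tlr3 and Zbp1), against 1.68% of all tested genes. Groups that did not overlap, with anti-Stat3 higher, were found for 2 of the 10 (Dhx58 and Zbp1), against 2.45%. Because the 10 genes were chosen with earlier results of these data known, these shares are a description only.

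Most of the 10 genes varied more among the controls than among the anti-Stat3 samples. In control sample 1, 6 of the 10 genes were more than 2-fold above the mean of control samples 2 and 3, against 6.5% of all tested genes, with ratios from 2.57 for Tlr3 to 5.34 for Ifih1. Mb21d1 had a ratio of 2.00, just under that limit. The highest control exceeded the lowest 6.49-fold for Ifih1 and 5.26-fold for Zbp1, whereas the highest anti-Stat3 sample exceeded the lowest 1.44-fold and 1.49-fold. For 7 of the 10 genes the SD of log2 CPM was larger among controls, against 42.5% of all tested genes. For Ddx58 it was 0.92 among controls and 0.16 among anti-Stat3 samples, and for Dhx58 1.11 and 0.15. Mavs, Tlr7 and Tmem173 had the larger SD among anti-Stat3 samples.

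Interferon beta transcripts, a product of these pathways, were counted in pair 1 only. Ifnb1, the gene of interferon beta, had a count of 29 (1.96 CPM) in control sample 1 and 28 (1.76 CPM) in anti-Stat3 sample 1. It had a count of 0 in the other 4 libraries, which allows levels of up to 0.159 to 0.230 CPM (3 counts, counting error only). Ifna1, Ifnl2 and Ifnl3 had a count of 0 in all 6 libraries, Ifna2 had 1 in all and Ifna4 had 2 in all. Their low counts kept all 6 interferon genes out of the tests. Pair 1 was thus the pair with Ifnb1 counts, with the highest control levels of Ddx58, Ifih1, Dhx58, Tlr3, Eif2ak2 and Zbp1 and with few macrophage transcripts. What these 3 facts have to do with each other was not tested.

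Divided by length (CPM per kilobase of exon, with exon lengths from a GENCODE annotation of another build than the counts), Zbp1 was highest after anti-Stat3 siRNA, at 61.6 ± 14.4, followed by Ddx58 (38.9 ± 4.49), Eif2ak2 (37.4 ± 7.52) and Tmem173 (26.5 ± 7.27; CPM per kilobase, SD, n = 3). Dhx58 (20.5 ± 2.11), Ifih1 (18.3 ± 3.30), Mavs (13.0 ± 0.879) and Tlr3 (10.7 ± 2.81) came next, and Mb21d1 (1.92 ± 0.492) and Tlr7 (1.68 ± 1.25) were lowest. Neighbours in this order differed by less than the sum of their SDs, except for Zbp1 and Ddx58, Ifih1 and Mavs, and Tlr3 and Mb21d1. With control siRNA Eif2ak2 (24.9 ± 15.2), Tmem173 (22.9 ± 3.69), Zbp1 (22.4 ± 21.7) and Ddx58 (21.7 ± 15.1) could not be ranked within their spread. In control samples 2 and 3 Tmem173 was the most abundant of the 10 per length, at 22.9 and 26.6, whereas in control sample 1 it was Zbp1, at 47.5.

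The other genes of the sensor pathways were taken from lists written with earlier results of these data known. Over all tested genes, 17.3% were higher and 16.4% lower in all 3 pairs, and at an unadjusted p under 0.05 in blocked edgeR 5.63% were higher and 5.2% lower. Of 20 other sensors tested from a list of 21, 7 (35%) were higher and 3 (15%) lower in all 3 pairs, the latter near the share over all tested genes, and 0 passed in edgeR with the group alone or in either blocked fit (6, or 30%, higher and 0 lower at an unadjusted p under 0.05 in blocked edgeR). Their median pair changes were -0.0076, 0.16 and 0.06. By the mean of the 3 pairs, the changes were largest in Ifit3 (0.57, 4.95 and 6.09) and Ifit1 (0.38, 3.53 and 4.06). Ifit2 followed, and then Ddx60, a helicase, at 0.45, 3.44 and 2.67.

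Of 19 adaptors, kinases and ubiquitin ligases, 3 (15.8%) were higher and 3 (15.8%) lower in all pairs, both near the shares over all tested genes (17.3% and 16.4%), and 0 passed in edgeR with the group alone or in either blocked fit (3 higher and 0 lower at an unadjusted p under 0.05 in blocked edgeR, against 5.63% and 5.2%). Rnf135 and Trim25, ligases that act on RIG-I, had pair changes of 0.41, 0.67 and 1.22, and of 0.03, 0.82 and 0.55. Unc93b1, which carries TLR3 and TLR7 to endosomes, had 0.16, 0.32 and 0.73. Tbk1, the kinase below MAVS and STING, had -0.15, 0.41 and 0.26. The pathway's transcription factors had 7 tested genes, of which 3 were higher in all pairs (42.9%, against 17.3% of all tested genes) and 0 passed in any of these 3 fits (2 higher and 0 lower at an unadjusted p under 0.05 in blocked edgeR, against 5.63% and 5.2%). Irf7, which amplifies interferon production, had 392, 19.7 and 18.6 CPM in control samples 1 to 3, set against 524, 211 and 186 CPM under anti-Stat3 siRNA. Irf3, which acts first in these pathways, had 26.1, 26.2 and 29.0 CPM and 26.7, 26.3 and 36.8 CPM.

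Negative regulators and enzymes that clear nucleic acid had 19 tested genes, of which 7 (36.8%) were higher and 2 (10.5%) lower in all pairs, against 17.3% and 16.4% of all tested genes. In blocked DESeq2 4 of them rose and 0 fell, against 0.866% and 0.783% of all tested genes, and in blocked edgeR and in edgeR with the group alone 0 passed. They were Samhd1, a nucleotide hydrolase, at 1.33 (adjusted p = 2.2e-05 in DESeq2), Trex1, a DNA exonuclease that keeps DNA from cGAS, at 0.82 (adjusted p = 0.015 in DESeq2), Adar, which edits double-stranded RNA, at 0.78 (adjusted p = 0.022) and Nlrc5, known as an activator of MHC class I genes, at 3.12 (adjusted p = 0.032). Trex1 had pair changes of 0.32, 0.96 and 1.16, and Adar of 0.12, 1.15 and 1.06. Nlrc5 was also called in DESeq2 with the group alone (adjusted p = 0.0022 in DESeq2), where 0.128% of all tested genes were called.

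Genes downstream of PKR and the other kinases of its substrate eIF2alpha had a median change of -0.0090 over 10 tested genes, with 1 higher and 1 lower in all pairs (10% each, below the 17.3% and 16.4% of all tested genes) and 0 called in the 3 fits. At an unadjusted p under 0.05 in blocked edgeR 1 was higher and 1 lower, against 5.63% and 5.2%. Ppp1r15a, which restores translation, had pair changes of -0.45, -0.24 and -0.23, and Ddit3, a stress transcription factor, had 0.09, 0.49 and 0.26. The 3 partners of ZBP1 in cell death were higher in all pairs, against 17.3% of all tested genes, with 0 called in the 3 fits (1 higher and 0 lower at an unadjusted p under 0.05 in blocked edgeR, against 5.63% and 5.2%). Mlkl, the executor of necroptosis, had 99.2, 30.5 and 35.5 CPM in control samples 1 to 3, set against 103, 89.1 and 99.1 CPM under anti-Stat3 siRNA, whereas Ripk3 and Casp8 differed by at most 0.44 in any pair.

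**Figure D5:**
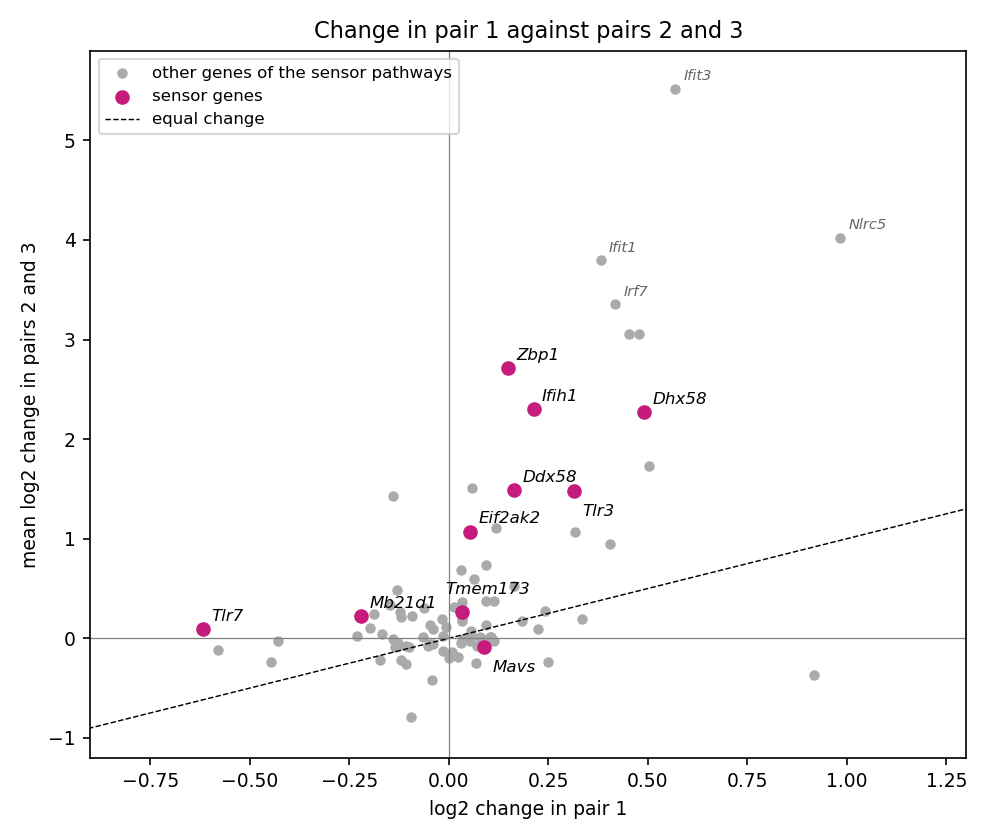
Log2 change in pair 1 (horizontal) against the mean log2 change in pairs 2 and 3 (vertical) for the 10 sensor genes (pink) and the tested genes of the 6 other lists of the sensor pathways (grey), with a dashed line of equal change. Zbp1, Ifih1, Dhx58, Ddx58, Tlr3 and Eif2ak2 lie far above the line, and Mavs, Tmem173, Mb21d1 and Tlr7 lie near a vertical value of 0.

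The profiles of the 3 RIG-I-like receptor genes over the 6 samples were averaged, and each lay within a root mean square difference of 0.172 to 0.243 (log2 CPM, centred on the gene's mean, n = 6 samples) of this joint mean, which contains them. The 5 genes outside the list with the smallest difference were Parp12 (0.126), Trim34b (0.132), B2m (0.134), Parp11 (0.137) and H2-D1 (0.147), of which B2m and H2-D1 encode MHC class I chains. B2m had 1481, 450 and 460 CPM in control samples 1 to 3, set against 1728, 1703 and 1621 CPM under anti-Stat3 siRNA. Ranked among all 13284 tested genes by this difference, Dhx58 was number 10, Ifih1 number 18 and Ddx58 number 21, behind genes that had no part in the mean. Zbp1 was number 53, Eif2ak2 number 76 and Tlr3 number 77. Mb21d1 was number 599, and Mavs, Tmem173 and Tlr7 were numbers 5874, 7373 and 12831.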

How the data were processed

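Per the labels' protocols, TRIzol RNA of the CAFs was poly(A)-selected for TruSeq libraries. The submitters' processing notes name TopHat2 2.0.10, HTSeq and build mm9. The authors deposited raw counts per gene symbol, without normalisation, for 24015 symbols in 6 columns, each matched to its sample by group and number. No source used here gives the strand setting or the treatment of shared reads, so overlapping genes cannot be told apart.

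The main test was edgeR's quasi-likelihood test (edgeR 4.0.16, R 4.3.3; TMM scaling, filterByExpr at its minimum count of 10 and minimum total of 15, the group as the only term, Benjamini-Hochberg threshold 0.05 over all 13284 genes). DESeq2 1.42.0, limma-voom (limma 3.58.1) and fits with the pair as a block were alternatives. Log2 CPM used a prior count of 2. The edgeR test gives no SE, so the SE of an edgeR change was computed from the test. It is the absolute change divided by the square root of the F statistic. The sample titles give both groups the numbers 1 to 3. Same-numbered samples correlated at 0.82 to 0.83 in their deviations and others at -0.16 or below, so the numbers were taken to pair the samples. No source used here says what a number shares. The edgeR, DESeq2 and limma-voom fits, each with the group alone and with the block, were run on simulated counts. There each changed gene had the same fold change in every pair, so the simulation does not bear on changes that differ between pairs.

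The 10 genes and the pathway lists were chosen with earlier results of these data known. The text names all 10, Stat3, up to 4 genes of each pathway list with the smallest p in blocked edgeR, the markers of highest level and the 5 genes nearest in profile to Ddx58, Ifih1 and Dhx58. Tbk1, Irf3 and C1qa were named after their values were seen, and from lists with few changes not all 4 are described. The fibroblast markers Vim, S100a4, Pdgfra, Pdgfrb, Dcn, Lum and Fap were also named after their values were seen. Dendritic and lymphoid markers had 1 of 9 genes tested and at most 9.21 CPM in sum. With 3 samples per group, a two-sided exact permutation test cannot give a p under 0.1, so none was used.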

Additional observations from a re-analysis of the deposited data

How the results depend on the processing

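Ddx58, Ifih1, Dhx58, Tlr3, Eif2ak2 and Zbp1 were higher under all 19 alternatives. Over all tested genes, 0 were called in edgeR with the group alone, 8 with the replicate block, 17 in DESeq2 with the group alone, 219 in DESeq2 with the replicate block and 8 in limma-voom with the replicate block. Of the sensor genes, 0 became 2 in DESeq2 with the replicate block. The cause of these differences was not tested. RLE size factors, no filter on low counts and a term setting pair 3 apart from pairs 1 and 2 left both counts at 0. With 1 sample left out and the group alone, 0 to 40 genes and 0 to 2 sensor genes (Dhx58 and Zbp1) were called and the sensor median was 0.47 to 1.37, each highest without control sample 1. Without pair 1, 2 or 3, blocked edgeR called 703, 3 and 0 genes and 6, 0 and 0 sensor genes, and blocked DESeq2 431, 14 and 20 genes and 6, 0 and 0 sensor genes. Changes near 0 switched sign. Tlr7, at 0.029, became -0.049 in edgeR and -0.080 in DESeq2 with the replicate block, -0.17 and -0.24 in these fits without pair 2, and -0.15 and -0.22 without pair 3. Mb21d1 became -0.13 and -0.12 without pair 2, and Mavs 0.0021 and 0.0081 without pair 3. With 1 sample left out Tlr7 ranged from -0.50 to 0.53, Mb21d1 from -0.17 to 0.44, Mavs from -0.073 to 0.020 and Tmem173 from -0.019 to 0.38. A prior count of 0.5 moved no mean log2 CPM by more than its SD. Depth limits Tlr7 in pair 1 and the interferon genes.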
